A study of Mus musculus with 4 samples.

Results

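A set of 8 Notch pathway genes was followed through all annotated cells of the posterior hindbrain: the transcriptional repressors *Hes1*, *Hes5*, *Hey1* and *Hey2*, the receptors *Notch1* and *Notch2*, and the ligands *Jag1* and *Dll1*. They are 8 of the 32285 genes in the deposited UMI tables and were chosen by name, with *Hes1* in astrocytes chosen for its difference between groups in these same libraries. For that reason the differences in astrocytes are given as values without a p-value, and levels across cell types are a description. Single-nucleus RNA sequencing had been performed on 4 libraries, 2 of control and 2 of AgRP-Gq;POMC-Gi mice, and the library was the unit of replication (n = 2 per group). AgRP-Gq;POMC-Gi mice carried AgRP-IRES-Cre+/- with an hM3DGq fl/- allele, so that an activating receptor was placed in AgRP neurons, together with POMC-Dre+/- and an hM4DGi fl/- allele, so that an inhibiting receptor was placed in POMC neurons. Control libraries were labelled WT. By the breeding scheme of the study, controls carried the receptor alleles without either recombinase. All mice were C57BL/6 adults of 12 to 20 weeks and both sexes, and all received CNO, the ligand of the receptors, at 3 mg per kg intraperitoneally and were killed 1 h later without food. Each group was a pool of 2 mice by the labels, the mice in each library are not stated, and the spread between libraries may therefore be technical.

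The receptor transgenes are not among the genes counted, and AgRP neurons lie in the hypothalamus, so no transcript in these hindbrain libraries checks the group labels. The authors kept 39461 nuclei with 202643768 UMIs, 9723 to 10051 nuclei per library, in 14 cell types. Any pair of libraries shared 19 to 36 kept barcodes, at most 0.370% of the smaller library. Replicate 1 of each group held almost no choroid plexus (2 and 6 nuclei), whereas replicate 2 held 436 and 329 nuclei in control and AgRP-Gq;POMC-Gi. Summed choroid plexus markers in astrocytes followed the same division, with 21.2 and 41.5 CPM (UMI counts scaled to a library total of 1e+06 within the cell type) in the replicates numbered 1 and 2735 and 1673 CPM in those numbered 2. This division does not coincide with the groups, and the differences of *Hes1* and *Hes5* in astrocytes are also given within each side of it.

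Notch signalling passes between touching cells. A ligand of the Jagged or Delta family on one cell binds a Notch receptor on its neighbour, the receptor is cut, and its intracellular part enters the nucleus and joins the DNA-binding protein RBPJ to switch on target genes. *Hes* and *Hey* genes are the best known of these targets and encode basic helix-loop-helix repressors that keep precursor cells from differentiating. In the adult brain the pathway is known for maintaining astrocytes and neural stem cells, for holding oligodendrocyte precursor cells (OPC) undifferentiated, and for the identity of arteries and their contractile wall cells.

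In GENCODE vM21 on GRCm38, *Hes1* (ENSMUSG00000022528) lies on chromosome 16 at 30064384 to 30067796 and *Hes5* (ENSMUSG00000048001) on chromosome 4 at 154960923 to 154962371, both on the plus strand. *Hey1* (ENSMUSG00000040289) lies on chromosome 3 at 8663359 to 8667256 and *Hey2* (ENSMUSG00000019789) on chromosome 10 at 30832359 to 30842801, both on the minus strand. *Notch1* (ENSMUSG00000026923) occupies chromosome 2 from 26457903 to 26516663 on the minus strand, and *Notch2* (ENSMUSG00000027878) chromosome 3 from 98013527 to 98150361 on the plus strand. *Jag1* (ENSMUSG00000027276) is found on chromosome 2 at 137081456 to 137116644 and *Dll1* (ENSMUSG00000014773) on chromosome 17 at 15367354 to 15376872, both on the minus strand. All are protein-coding. Genes on the opposite strand overlap *Hes5* (*Gm20421*), *Notch1* (*0610009E02Rik* and *Gm13568*) and *Dll1* (*A930024N18Rik*). On the same strand, *Mir6996* overlaps *Notch1*, and *Gm42819* and *Gm42820* overlap *Notch2*, where reads may be shared.

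RefSeq promoter windows on GRCm38.p6 matched 6 of the 8 genes, in 7 windows because *Dll1* has 2. *Hes1* and *Hey1* had no entry. The 250 bases before the start were searched on both strands for TGGGAA, the core of the RBPJ recognition sequence, and for the longer GTGGGAA that contains it. The core occurred in 21.6% of the 32851 promoter windows of this length and GTGGGAA in 5.42%, while 0.161% held at least 2 copies of GTGGGAA. *Hes5* held 2 copies, beginning 226 and 82 bases before its start on the reverse and forward strands, and *Hey2* held 1, beginning 207 bases before its start on the opposite strand. All 3 were also GTGGGAA. Neither *Notch1*, *Notch2*, *Jag1* nor either window of *Dll1* held the core. A match is a stretch of letters and was not measured as a bound site. The windows of the repressors are shown 5′ to 3′ on the strand of the gene, with TGGGAA or its reverse complement in capitals, at chr4:154960673-154960922 for *Hes5* (plus strand) and chr10:30842784-30843033 for *Hey2* (minus strand).
Hes5: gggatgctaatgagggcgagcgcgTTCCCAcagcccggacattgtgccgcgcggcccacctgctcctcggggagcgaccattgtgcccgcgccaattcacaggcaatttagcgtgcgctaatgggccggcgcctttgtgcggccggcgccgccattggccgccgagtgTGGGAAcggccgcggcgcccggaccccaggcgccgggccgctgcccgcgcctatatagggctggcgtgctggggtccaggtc
Hey2: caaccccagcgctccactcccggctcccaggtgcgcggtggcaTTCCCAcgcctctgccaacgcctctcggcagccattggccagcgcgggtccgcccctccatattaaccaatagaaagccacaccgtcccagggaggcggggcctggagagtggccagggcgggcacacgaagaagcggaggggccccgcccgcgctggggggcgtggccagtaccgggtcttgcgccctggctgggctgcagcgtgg

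The 2 ligands were highest in different cells, though both were detected in OPC, *Dll1* in 14.4% and *Jag1* in 6.25% of nuclei. *Dll1*, which encodes a Delta ligand, was highest in OPC, with 44.4 and 37.3 CPM in OPC of control replicates 1 and 2 and 52.3 and 33.6 CPM in those of AgRP-Gq;POMC-Gi. Its mean of 41.9 ± 8.27 CPM (SD, n = 4 libraries) was 5.10-fold that of endothelial cells, the next type, and the ranges of the 2 types did not overlap. The share of the 784 OPC nuclei with a *Dll1* UMI had an exact 95% interval of 12.0 to 17.1%, against 0.642% of oligodendrocytes and 0.183% of astrocytes. None was found in 806 mural nuclei, which allows a share of up to 0.372%, or in 202 tanycyte-like nuclei, which allows up to 1.49%. These intervals and limits cover counting error only and concern nuclei with a UMI. Over the 14 cell types, genes with a pattern like that of *Dll1* included *A230077H06Rik* (Pearson r of log2(mean CPM + 1) 0.874), *Gm10545*, *Gm16277* and *Prr36*. These correlations, like those below, are over 14 types measured in the same libraries and describe likeness of pattern among 17469 genes.

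*Jag1*, which encodes a Jagged ligand, was a transcript of vessels and their surroundings. In mural cells, the contractile cells and pericytes of the vessel wall, it stood at 82.2 and 86.4 CPM in control and 67.6 and 52.4 CPM in the AgRP-Gq;POMC-Gi libraries. The mean of 72.1 ± 15.4 CPM was followed by 53.6 ± 18.5 CPM in fibroblasts and 43.3 ± 4.24 CPM in endothelial cells, and the ranges of neighbours in this order overlapped. Astrocytes and OPC were lower, with 14.4 ± 3.03 and 17.1 ± 5.53 CPM, and oligodendrocytes stood at 1.69 ± 0.330 CPM. Astrocytes with a *Jag1* UMI made up 4.84%, just under the 5% of nuclei required for a test between groups. The genes most like *Jag1* were *Pelo* (r 0.854), *Nr1d1*, *Ptpn21*, *Ssr3* and *H2afx*.

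The 2 receptors had different distributions. *Notch1* was highest in mural cells, with 191 and 182 CPM in control and 230 and 172 CPM in the AgRP-Gq;POMC-Gi libraries. This exceeded endothelial cells (127 ± 19.8 CPM) in all 4 libraries without overlap of the ranges. Tanycyte-like cells followed with 90.6 ± 27.4 CPM, and OPC and astrocytes did not differ beyond their spread (62.4 ± 9.29 and 62.3 ± 7.39 CPM). *Notch1* was low in oligodendrocytes, at 1.48 ± 0.646 CPM and in 0.387% of 16816 nuclei, against 21.7% of OPC nuclei. After every nucleus was thinned to 800 UMIs the shares were 0.149% and 4.85%. Neurons, with a median depth of 8704 UMIs against 3728 in OPC, had a *Notch1* UMI in 0.845% of nuclei. The closest patterns were those of *Gm17571* (r 0.852), *Sdc3*, *Ssr3*, *Eps8* and *Tap2*.

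*Notch2* was found in macrophages, connective tissue and the epithelium that makes cerebrospinal fluid. F13a1.Immune cells had 462 and 237 CPM in control and 280 and 432 CPM in the AgRP-Gq;POMC-Gi libraries, from 88 nuclei in all. In fibroblasts *Notch2* ranged from 189 to 429 CPM over the 4 libraries, with the highest value in AgRP-Gq;POMC-Gi replicate 1. Choroid plexus had the largest share of nuclei with a UMI, 71.5% of 773 (68.2 to 74.7%), with 369 and 387 CPM in the replicates numbered 2. Tmem119.Immune cells, the microglia by their markers, had 160 ± 24.0 CPM, tanycyte-like cells 160 ± 22.6 CPM and astrocytes 125 ± 9.29 CPM. *Notch2* was low where *Notch1* was high in the vessel wall, with 30.8 ± 8.03 CPM in mural and 23.5 ± 12.5 CPM in endothelial cells, and in OPC, with 10.4 ± 5.47 CPM. Genes with the most similar pattern were *Foxo3* (r 0.877), *Lamp2*, *Phf21a*, *Soat1* and *Nfe2l2*.

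The annotated type Oligodendrocytes/OPC, with 123 nuclei, showed *Notch2* at 0 and 437 CPM in the control libraries and 323 and 24.8 CPM in the AgRP-Gq;POMC-Gi libraries. The type joins 2 clusters of different content. Cluster 136, with 62 nuclei led by *9630013A20Rik*, *Gpr17*, a receptor of differentiating oligodendrocyte precursors, and *Ppfibp1*, held 2 *Notch2* UMIs. Cluster 138, with 61 nuclei led by *Prg4*, *Fn1*, a gene of the extracellular matrix, and *Gm12153*, held 110 *Notch2* UMIs, or 575 CPM, and no UMI of *Notch1*, *Hes5* or *Dll1*. It drew 27 nuclei from control replicate 2 and 32 from AgRP-Gq;POMC-Gi replicate 1, but 0 and 2 from the other libraries. The leading genes of cluster 138 are not those of the oligodendrocyte lineage, and the *Notch2* value of the joint type follows which libraries hold that cluster.

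**Figure D1:**
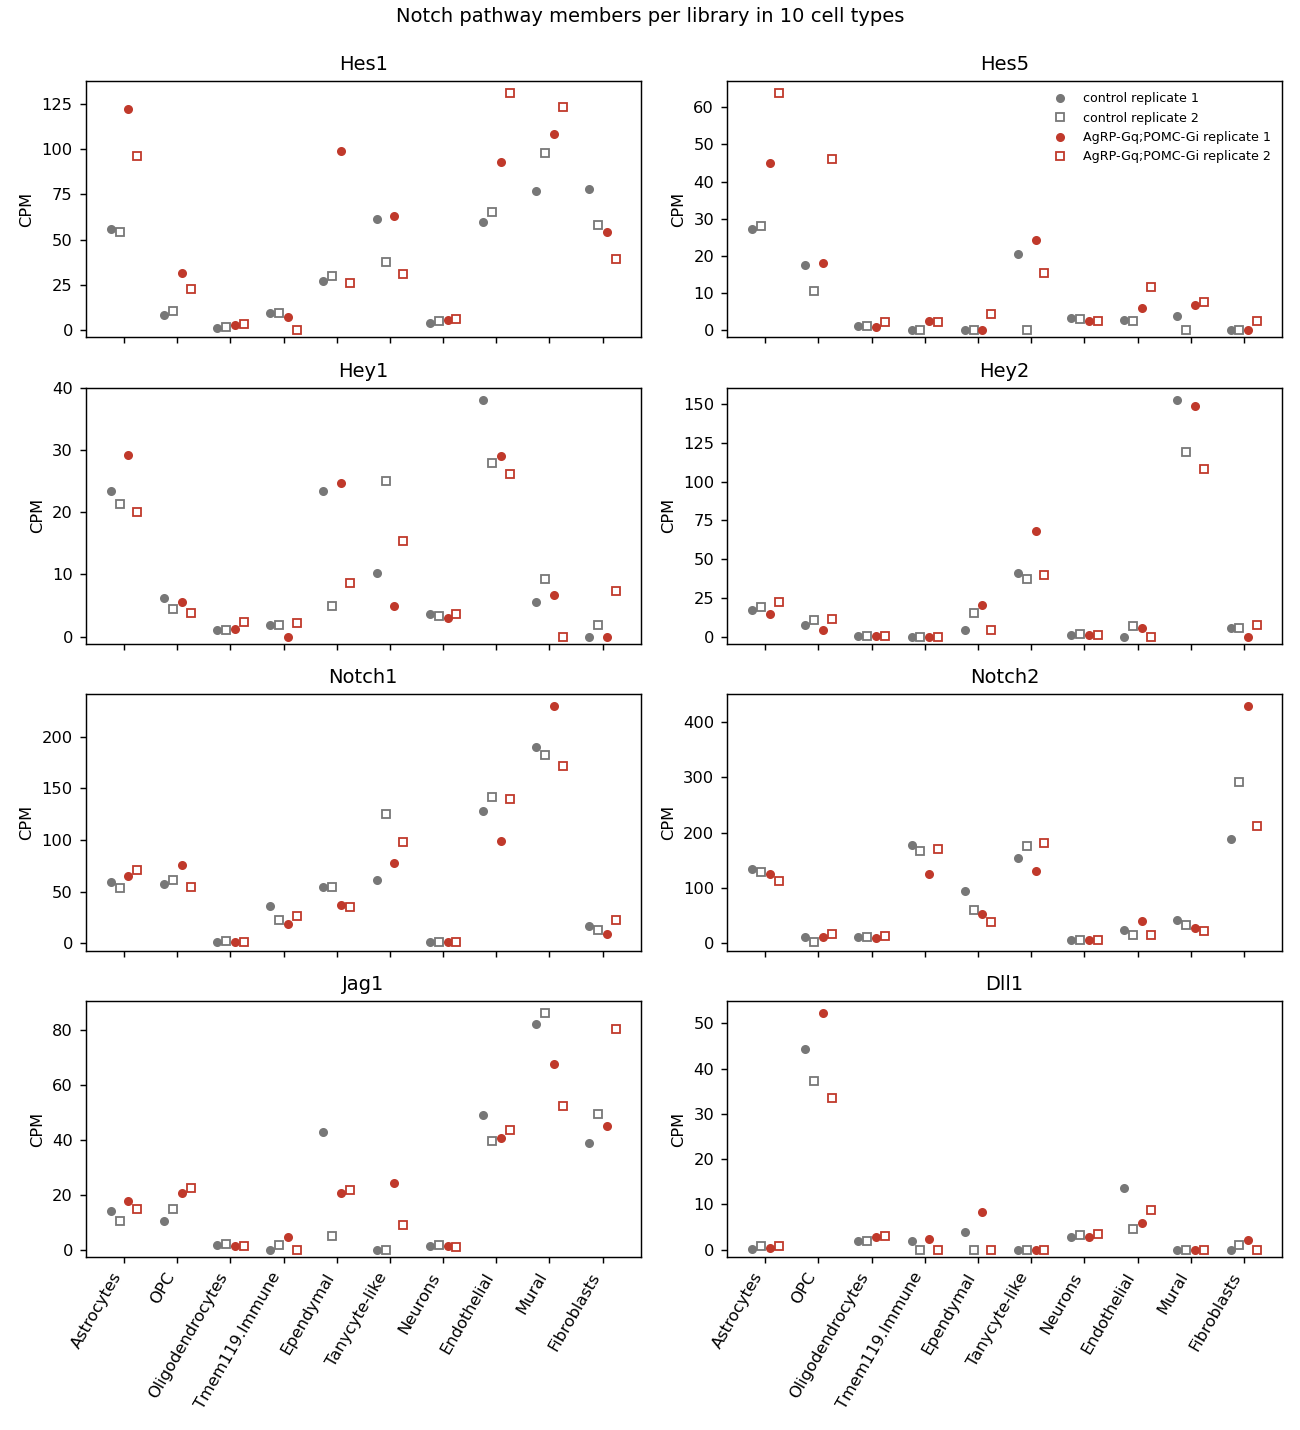
CPM of each of the 8 genes (y axis, linear, one scale per panel) in the 10 cell types with at least 20 nuclei in every library (x axis). Each point is 1 library, grey for control and red for AgRP-Gq;POMC-Gi, filled for replicate 1 and open for replicate 2. *Dll1* is highest in OPC at 33.6 to 52.3 CPM, *Hey2* and *Notch1* in mural cells, and the red *Hes1* points lie above the grey ones in astrocytes, OPC, endothelial and mural cells, neurons and oligodendrocytes and below them in fibroblasts and Tmem119.Immune cells.

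Among the target genes, *Hes1* and *Hes5* differed in breadth. *Hes1* was found at similar levels in mural cells (102 ± 19.6 CPM), endothelial cells (87.4 ± 32.7 CPM) and astrocytes (82.1 ± 33.1 CPM), whose ranges overlapped, and in fibroblasts at 57.3 ± 16.0 CPM. It was low in Tmem119.Immune cells (6.55 ± 4.52 CPM), neurons (4.95 ± 0.929 CPM) and oligodendrocytes (2.24 ± 1.14 CPM). A *Hes1* UMI was present in 21.7% of 4378 astrocytes (20.5 to 23.0%, median depth 3375.5 UMIs) and in 0.535% of oligodendrocytes (0.431 to 0.657%, median depth 2460 UMIs), and in 6.69% and 0.196% after thinning. The genes most like *Hes1* were *Nr1d1*, which encodes a nuclear receptor of the circadian clock (r 0.919), *Vcl*, *0610009E02Rik*, which overlaps *Notch1* on the other strand, *Aldh2* and *Utrn*.

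*Hes5* was highest in astrocytes. It stood at 41.1 ± 17.3 CPM in astrocytes and 23.0 ± 15.8 CPM in OPC, with a UMI in 10.4% and 7.78% of nuclei. Tanycyte-like cells, with 202 nuclei and 12 *Hes5* UMIs, had 20.5 and 0 CPM in control and 24.3 and 15.3 CPM for AgRP-Gq;POMC-Gi, a range that overlapped that of OPC, and a UMI in 3.96% of nuclei. Mural and endothelial cells, with the highest mean *Hes1* CPM over all libraries, had 4.49 ± 3.41 and 5.63 ± 4.31 CPM of *Hes5* from 5 and 7 UMIs. Choroid plexus came second by mean CPM only through 1 of the 2 nuclei in control replicate 1. Its other 3 libraries had at most 0.640 CPM. *Gpam* (r 0.878), *Phka1*, *Gm45022*, *Dok7* and *Prkd1* were the genes most like *Hes5*.

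The 2 *Hey* genes separated the cell types of the vessel. *Hey2* marked mural cells, with 153 and 119 CPM in control and 149 and 108 CPM for AgRP-Gq;POMC-Gi and a UMI in 17.9% of nuclei, whereas endothelial cells had 4 UMIs of it in all. *Hey1* was the reverse, with 30.4 ± 5.33 CPM in endothelial and 5.43 ± 3.94 CPM in mural cells. Outside the vessel *Hey2* was also found in tanycyte-like cells (46.6 ± 14.4 CPM) and choroid plexus (15.9% of nuclei), and *Hey1* in astrocytes (23.5 ± 4.09 CPM). The level of *Hey1* in astrocytes overlapped that in endothelial cells. *Hey2* in astrocytes was 18.2 ± 3.27 CPM. *Ednra*, the endothelin receptor of vascular smooth muscle, was among the 5 genes most like *Hey2* (r 0.881), behind *Gm16833* and ahead of *4930415O20Rik*, *Sox5os2* and *Plce1*. For *Hey1* they were *Gm45812* (r 0.905), *Mtfr2*, *A730049H05Rik*, *Txlnb* and *Kcng4*.

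In astrocytes 6 of the 8 genes, all but *Jag1* and *Dll1*, had a UMI in at least 5% of nuclei, against 5 in OPC and mural cells and 0 in neurons and oligodendrocytes. This order depends on depth, with a median of 3375.5 UMIs in astrocytes and 1520.5 in mural cells. With every nucleus thinned to 800 UMIs it turned: *Hes1* (6.69%), *Notch1* (5.00%) and *Notch2* (8.98%) remained at 5% or more in astrocytes, and *Hes1* (7.69%), *Hey2* (9.18%), *Notch1* (14.5%) and *Jag1* (6.08%) in mural cells. The astrocyte label was borne out by its markers. *Aqp4*, *Slc1a2*, *Gja1* and 7 other astrocyte markers summed to 5034 to 5570 CPM in astrocytes of the 4 libraries, and to 2772 CPM on average in tanycyte-like cells, the next type. The markers chosen for tanycyte-like cells did not set that type apart, since they summed to 444 CPM in it and to 444 CPM in fibroblasts.

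Astrocytes fell into 11 clusters of the authors' annotation, each with at least 24 nuclei in every library. *Hes1* was present in all of them, from 46.4 CPM in cluster 48 to 103 CPM in clusters 20 and 22. *Hes5* had a wider range of cluster means, from 9.05 CPM in cluster 48 and 14.3 CPM in cluster 22 to 65.4 ± 19.2 CPM in cluster 15 and 130 ± 51.7 CPM in cluster 20. Clusters 15 and 20 held 169 and 212 of the 641 *Hes5* UMIs of astrocytes in 631 and 502 of 4378 nuclei. *Notch2* was highest in cluster 36 (177 ± 43.3 CPM) and had 90.8 ± 3.60 CPM in cluster 20, where *Hes5* was highest. *Hey2* was highest in cluster 48 at 43.6 ± 17.6 CPM, where *Hes1* and *Hes5* were lowest. Within single nuclei pooled over the 4 libraries and 11 clusters, *Hes5* was found at similar shares with and without *Hes1*. Shares within a library or cluster were not examined, and the intervals given cover counting error only. With astrocytes thinned to 2000 UMIs (3857 nuclei, 521 shallower ones left out), 7.51% of nuclei with a *Hes1* UMI also had one of *Hes5* (5.40 to 10.1%), against 6.95% of the others (6.11 to 7.87%). A *Hes1* UMI was found in 12.9% of nuclei with a *Notch1* UMI and in 13.5% of those without.

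*Hes1* was higher in astrocytes of AgRP-Gq;POMC-Gi mice. The control libraries had 55.6 and 54.1 CPM (257 and 216 UMIs), and replicates 1 and 2 of AgRP-Gq;POMC-Gi had 122 and 96.4 CPM (409 and 380 UMIs). The 2 control libraries lay close together, both AgRP-Gq;POMC-Gi libraries lay above them, and the mean was 1.99-fold that of control. edgeR's quasi-likelihood fit to the summed UMIs gave a log2 fold change of 1.04 (SE 0.16). The same gene was chosen for this contrast, so no p-value is given. By the thinned share of nuclei the difference had the same direction, with 5.08% and 4.70% of control nuclei and 10.7% and 6.53% of AgRP-Gq;POMC-Gi nuclei. Within the libraries that nearly lacked choroid plexus the log2 ratio was 1.14, and within those that held it 0.83.

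*Hes5* was also higher in AgRP-Gq;POMC-Gi astrocytes, with 27.3 and 28.1 CPM in control and 45.1 and 63.9 CPM in the AgRP-Gq;POMC-Gi libraries. The fitted log2 fold change was 1.02 (SE 0.16). The library with the higher *Hes1* value, AgRP-Gq;POMC-Gi replicate 1, had the lower *Hes5* value of that group. The thinned share was 1.99% and 2.21% in control and 3.84% and 5.22% in AgRP-Gq;POMC-Gi libraries. Within the libraries that nearly lacked choroid plexus the log2 ratio of *Hes5* was 0.73, and within those that held it 1.19.

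The remaining members differed less. *Notch1* stood at 59.3 and 53.9 CPM in control against 65.1 and 71.0 CPM in the AgRP-Gq;POMC-Gi astrocytes (log2 fold change 0.31, SE 0.12), without overlap. *Notch2* stood at 135 and 129 against 124 and 113 CPM (log2 fold change -0.11, SE 0.13), also without overlap but in the lower direction. *Jag1* had 14.3 and 10.5 against 17.9 and 14.7 CPM and was below the detection required for the fit. *Hey1* (log2 fold change 0.17, SE 0.23) and *Hey2* (0.09, SE 0.20) overlapped between groups, and *Dll1* had 8 UMIs in all astrocytes. The edgeR test called 53 of 8462 genes in astrocytes at an adjusted p under 0.05, or 0.626%, of which 22 were higher, or 0.26%. *Hes1* and *Hes5* were 2 of these 22, a count that follows from the choice of genes and is no test of them. Groups did not overlap and AgRP-Gq;POMC-Gi was higher in 15.2% of all genes tested, and lower in 22.2%.

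The differences were followed into the astrocyte clusters. *Hes1* was higher without overlap in 10 of 11 clusters, all but cluster 52. Such a pattern was found for 11.9 to 17.1% of the genes tested in any single cluster. The share of genes that show it in as many clusters was not counted. The clusters are parts of the astrocytes in which *Hes1* was chosen, from the same 4 libraries, so they are not separate observations. In cluster 22, for example, *Hes1* stood at 58.2 and 59.6 CPM in control and 149 and 144 CPM for AgRP-Gq;POMC-Gi. In cluster 36 it stood at 55.0 and 57.8 CPM and at 102 and 102 CPM in the same order. The groups lay closer in cluster 20, at 84.7 and 76.1 against 163 and 88.0 CPM. In cluster 48 only AgRP-Gq;POMC-Gi replicate 2 lay near control, at 18.6 and 29.4 against 101 and 36.3 CPM from 22 UMIs (log2 fold change 1.38, SE 0.75). The log2 fold change of *Hes1* over the clusters ran from -0.16 in cluster 52, with 23 UMIs, to 1.73 in cluster 54, with 38 UMIs. The median was 1.09. Giving each cluster the same weight in every library left the log2 ratio of means at 0.98, against 0.99 for all astrocytes summed.

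*Hes5* was higher without overlap in 4 of 11 clusters, 15, 20, 22 and 54, of which clusters 22 and 54 held only 22 and 13 UMIs of it. Such a pattern was found for 11.9 to 17.1% of the genes tested in any single cluster. In cluster 20, its highest, it stood at 84.7 and 109 CPM in control and 123 and 204 CPM for AgRP-Gq;POMC-Gi. In cluster 15 the values were 58.1 and 42.7 CPM and 73.9 and 87.0 CPM. In the other 7 clusters the groups overlapped. Whether the spread over clusters differs between *Hes1* and *Hes5* was not tested. Cluster 20 itself made up 5.71% and 8.95% of control astrocytes and 15.4% and 15.8% of AgRP-Gq;POMC-Gi astrocytes, and cluster 15 made up 21.7% of astrocytes in AgRP-Gq;POMC-Gi replicate 2 and at most 12.8% in the other 3 libraries. With clusters weighted by their pooled share of UMIs in every library, *Hes5* stood at 30.8 and 30.5 CPM in control and 44.3 and 51.5 CPM in the AgRP-Gq;POMC-Gi libraries. The log2 ratio was then 0.64, against 0.98 for all astrocytes summed, and the groups still did not overlap. For *Hes1* the same weighting gave 0.99. Clusters were built from expression, so their shares and the level of a gene within them are not independent measures.

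**Figure D2:**
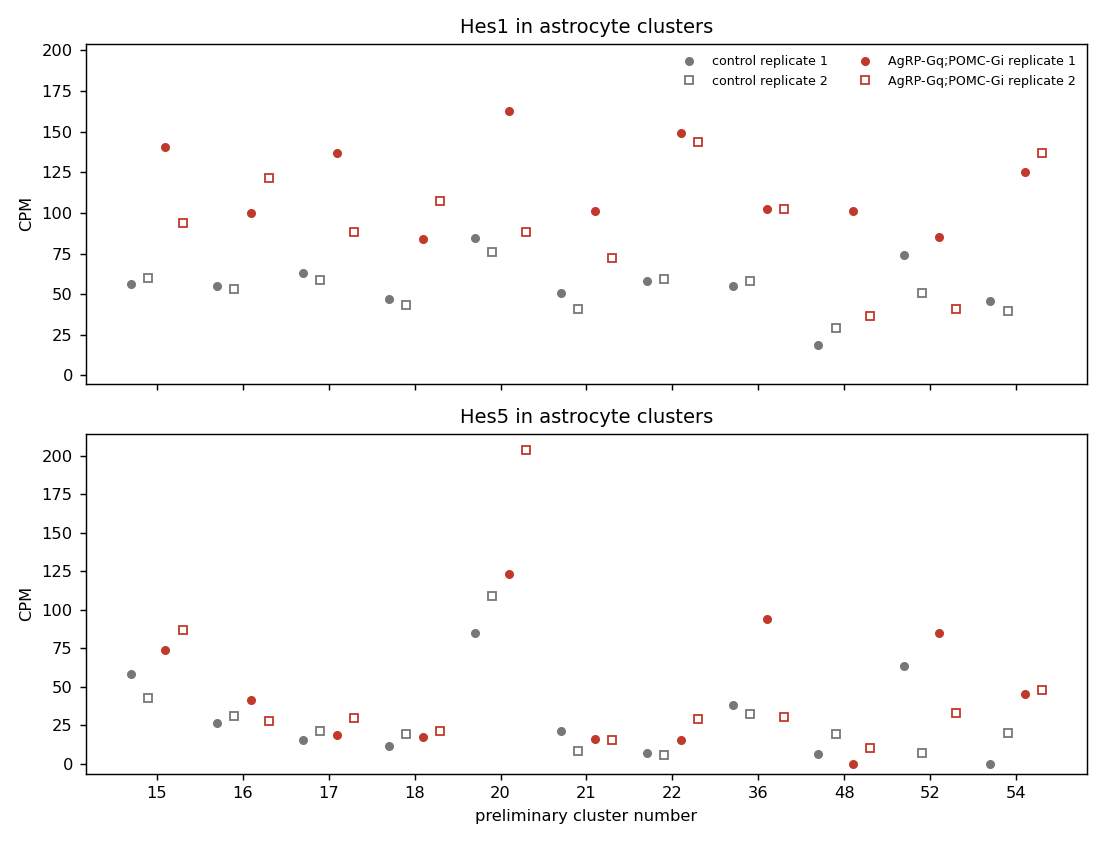
*Hes1* (upper panel) and *Hes5* (lower panel) in the 11 astrocyte clusters, as CPM (y axis, linear) by cluster number (x axis), with 1 point per library, coloured by group and filled for replicate 1. *Hes1* lies higher in both AgRP-Gq;POMC-Gi libraries in every cluster but 52, whereas *Hes5* is concentrated in clusters 15 and 20.

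**Figure D3:**
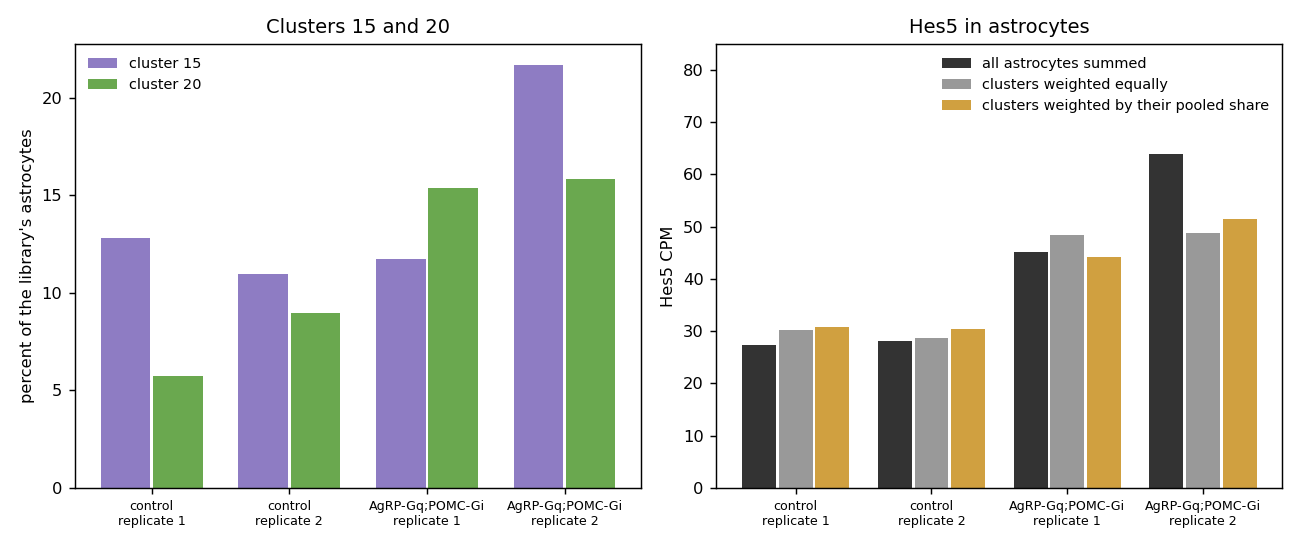
Left, percent of each library's astrocytes in clusters 15 and 20. Right, *Hes5* CPM in astrocytes of each library, summed over all astrocytes, with clusters weighted equally and with clusters weighted by their pooled share. Cluster 20 is larger in both AgRP-Gq;POMC-Gi libraries, and AgRP-Gq;POMC-Gi replicate 2 drops from 63.9 CPM to 48.7 CPM with clusters weighted equally and to 51.5 CPM with the pooled share.

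Markers of other cells in the astrocyte sums were compared between groups. Oligodendrocyte markers summed to 586 and 649 CPM in control and to 368 and 472 CPM in the AgRP-Gq;POMC-Gi astrocytes, with none of the 5 at 0, and were lower without overlap where *Hes1* was higher. Endothelial markers, from a type with much *Hes1*, summed to 144 and 123 CPM in control and 157 and 128 CPM in the AgRP-Gq;POMC-Gi astrocytes and overlapped. Mural markers summed to 39.2 and 48.1 CPM and to 51.1 and 57.1 CPM, higher without overlap, against 5609 CPM in mural cells themselves. OPC markers summed to 1123 and 1125 CPM and to 1297 and 1142 CPM, also higher without overlap. None of the markers in these lists was at 0 in astrocytes. Their part in the differences was not tested.

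Outside astrocytes, *Hes1* had its largest log2 fold change among the types tested in OPC. Its values were 8.26 and 10.4 CPM in control and 31.7 and 22.4 CPM in the AgRP-Gq;POMC-Gi libraries, from 56 UMIs in all. The groups did not overlap, as was so in this direction for 14.5% of genes tested in OPC and in the lower direction for 20.3%, and the log2 fold change was 1.58 (SE 0.43), the 4th highest of 9016 genes. The difference did not pass the test (edgeR adjusted p = 0.326, unadjusted p = 0.00147). *Hes1* met the 5% filter over all OPC (6.38% of nuclei) only through the AgRP-Gq;POMC-Gi libraries. Control replicates 1 and 2 held 8 and 7 UMIs of it in 202 and 169 nuclei. The fit, the rank and the p-values therefore rest on a filter that the difference itself decided. *Hes5* in OPC had 17.6 and 10.4 CPM in control and 17.9 and 46.1 CPM in the AgRP-Gq;POMC-Gi libraries. The groups were separated by the width of 17.6 to 17.9 CPM, with replicate 2 of AgRP-Gq;POMC-Gi far above the rest, and the log2 fold change of 1.19 (SE 0.42) did not pass the edgeR test (adjusted p = 0.564). The order of the AgRP-Gq;POMC-Gi libraries in OPC, *Hes1* higher in replicate 1 and *Hes5* in replicate 2, was that seen in astrocytes of the same libraries. Astrocyte markers in OPC summed to 697, 753, 737 and 757 CPM in control replicates 1 and 2 and AgRP-Gq;POMC-Gi replicates 1 and 2, and overlapped between groups. Oligodendrocyte markers in OPC were lower without overlap, at 464 and 587 against 408 and 367 CPM, and OPC markers were higher without overlap, at 5797 and 5729 against 6721 and 5886 CPM. No marker of these lists was at 0 in OPC, and their part in the *Hes1* and *Hes5* values was not tested.

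The OPC values depended on single libraries. When AgRP-Gq;POMC-Gi replicate 2 was left out, the log2 fold change of *Hes1* was 1.87 and that of *Hes5* fell to 0.40. When AgRP-Gq;POMC-Gi replicate 1 was left out, that of *Hes5* was 1.64. Each such fit takes the lone library to vary like the other group. The other members tested in OPC were *Jag1*, with 10.3 and 14.9 against 20.7 and 22.4 CPM (log2 fold change 0.85, SE 0.41), *Notch1* (0.18, SE 0.25) and *Dll1* (0.09, SE 0.30), none of which passed the test. The test called 4 of 9016 genes in OPC, or 0.0444%, none of them higher and none of them one of the 8.

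In endothelial cells *Hes1* stood at 60.0 and 65.1 CPM in control and at 93.2 and 131 CPM in the AgRP-Gq;POMC-Gi libraries. The groups did not overlap, as for 18.2% of genes tested there in this direction. Mural markers in endothelial cells were also higher without overlap, at 390 and 347 against 553 and 452 CPM, as were endothelial markers, at 8176 and 6526 against 8712 and 8290 CPM, while astrocyte markers were lower, at 531 and 491 against 338 and 429 CPM. None of these markers was at 0, and their part in the *Hes1* value was not tested. The log2 fold change of 0.88 (SE 0.31) did not pass the test (edgeR adjusted p = 0.585), in a type in which edgeR and DESeq2 called 0 genes and 365 of 5884 had an unadjusted edgeR p under 0.05. In mural cells, with 76.6 and 98.1 against 108 and 123 CPM, the log2 fold change of *Hes1* was 0.48 (SE 0.30, edgeR adjusted p = 0.847). There 25 of 5723 genes were called, or 0.437%, of which 21 were higher, or 0.367%, without any of the 5 members tested. Groups did not overlap for 15.9% of genes in the higher and 20.3% in the lower direction in mural cells. *Jag1* in mural cells was lower without overlap (log2 fold change -0.50, SE 0.35, edgeR adjusted p = 0.872), and *Hey2*, the member that marks these cells, was -0.11 (SE 0.29) and overlapped. *Notch2* in mural cells was also lower without overlap, at 41.1 and 32.7 against 27.0 and 22.4 CPM from 46 UMIs. It met the 5% filter over all mural nuclei (5.71%) only through the control libraries. The AgRP-Gq;POMC-Gi libraries held 4 and 6 UMIs of it in 103 and 163 nuclei. Its fit, and its place among the genes tested, therefore rest on a filter that the difference itself decided. In mural cells neuron markers were higher without overlap, at 809 and 843 against 980 and 1462 CPM, as were fibroblast markers, at 144 and 177 against 189 and 217 CPM. Summed oligodendrocyte markers were lower, at 1085 and 1053 against 994 and 1040 CPM. One by one, 3 of the 5 oligodendrocyte markers had a fitted log2 fold change above 0, with a median of 0.07. None of these markers was at 0, and their part in the *Hes1*, *Jag1* and *Notch2* values was not tested.

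*Hes1* in fibroblasts went the other way, at 77.9 and 58.2 CPM in control and 54.2 and 39.1 CPM in the AgRP-Gq;POMC-Gi libraries, a log2 fold change of -0.44 (SE 0.36, edgeR adjusted p = 1.00) without overlap, as for 17.1% of genes tested in fibroblasts in that direction. Astrocyte markers in fibroblasts were higher without overlap, at 857 and 778 against 1104 and 1030 CPM, as were ependymal markers, at 44.5 and 49.6 against 79.0 and 63.5 CPM. Microglia markers were lower without overlap, at 245 and 149 against 111 and 117 CPM. None of these markers was at 0 in fibroblasts, and their part in the *Hes1* value there was not tested. In ependymal cells *Notch1* was lower without overlap, at 54.6 and 54.8 against 37.1 and 34.8 CPM (log2 fold change -0.56, SE 0.48), as were 18.3% of genes tested there. *Notch2* in ependymal cells was lower without overlap as well, at 93.7 and 59.7 against 53.55 and 39.1 CPM. Astrocyte markers in ependymal cells, none of them at 0, were also lower without overlap, at 1616 and 1573 against 1462 and 1178 CPM. Their part in the *Notch1* and *Notch2* values was not tested. For *Hes1* in ependymal cells 1 library stood apart. It had 27.3 and 29.9 CPM in control, 98.9 CPM in AgRP-Gq;POMC-Gi replicate 1 and 26.1 CPM in AgRP-Gq;POMC-Gi replicate 2, and the log2 fold change of 1.18 (SE 0.62, edgeR adjusted p = 0.991) became -0.11 without AgRP-Gq;POMC-Gi replicate 1. In tanycyte-like cells *Hes1* was 0.02 (SE 0.71). In ependymal cells, fibroblasts and tanycyte-like cells edgeR called 0 genes, with 347 of 8632, 229 of 7973 and 533 of 8739 at an unadjusted p under 0.05, and DESeq2 called 0, 2 and 0. *Hes1* in Tmem119.Immune cells was also lower without overlap, at 9.59 and 9.52 against 7.08 and 0 CPM from 13 UMIs, as were 18.5% of genes tested there. Astrocyte markers in these cells were also lower without overlap, at 670 and 670 against 590 and 398 CPM, as were oligodendrocyte markers, at 1109 and 1013 against 764 and 823 CPM, with none at 0, and their part in the *Hes1* value was not tested. Only *Notch2* of the 8 was detected widely enough to be tested in Tmem119.Immune cells (log2 fold change -0.22, SE 0.20, edgeR adjusted p = 0.940), where edgeR and DESeq2 called 0 genes and 391 of 6588 had an unadjusted edgeR p under 0.05.

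In oligodendrocytes and neurons no member reached 5% of nuclei. *Hes1* in oligodendrocytes was nevertheless ordered by group, with 1.13 and 1.42 CPM in control and 2.95 and 3.45 CPM in the AgRP-Gq;POMC-Gi libraries from 94 UMIs, an order found for 14.1% of genes tested in that type. Without the filter on low genes its log2 fold change was 1.37 (edgeR adjusted p = 0.0143), and with edgeR's own filter it was 1.38 (adjusted p = 0.212). Without the filter 358 of 24332 genes were called in oligodendrocytes, 136 of them higher. With edgeR's own filter 26 of 14996 were called, 3 of them higher. Astrocyte markers in oligodendrocytes summed to 331, 325, 339 and 381 CPM in the same order, so they too were higher in both AgRP-Gq;POMC-Gi libraries, by less. Their part in the *Hes1* value was not tested. In neurons *Hes1* had 3.76 and 4.81 CPM in control and 5.26 and 5.98 CPM in the AgRP-Gq;POMC-Gi libraries, while *Hes5* had 3.13 and 2.84 against 2.33 and 2.47 CPM. Astrocyte markers in neurons were lower without overlap, at 123 and 96.3 against 75.3 and 95.1 CPM, as were oligodendrocyte markers, at 274 and 230 against 134 and 170 CPM, with none at 0, and their part in the *Hes5* value was not tested. Such non-overlap was found for 10.4% of genes tested in neurons in the higher and 27.7% in the lower direction. With the 5% filter the edgeR test called 0 genes in neurons and oligodendrocytes, with 667 of 12115 and 629 of 6646 at an unadjusted p under 0.05, and DESeq2 called 10 and 119. Both types came from the same 4 libraries as the astrocytes, so the shared order of groups is not independent evidence.

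**Figure D4:**
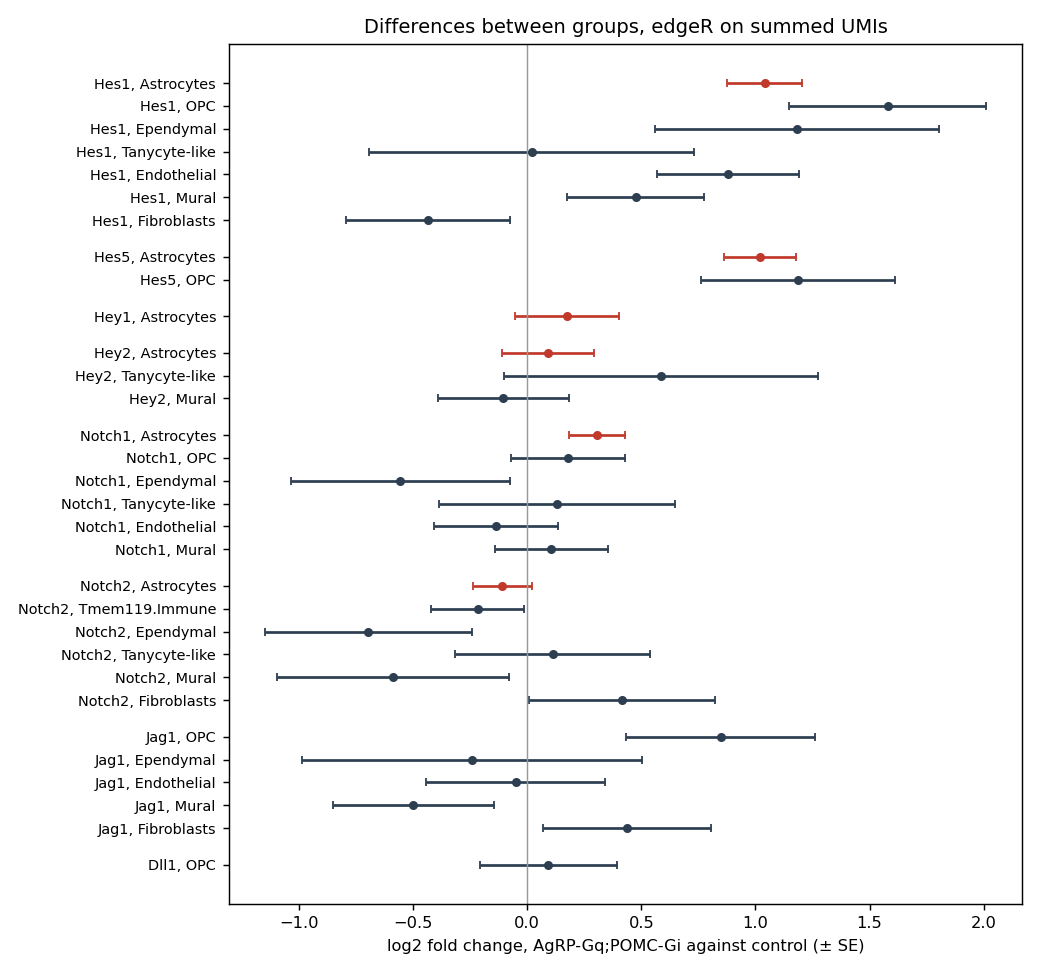
Log2 fold change of AgRP-Gq;POMC-Gi against control (x axis, points with bars of 1 SE) for each member in each cell type where it was fitted (y axis), red for astrocytes and dark for other types. *Hes1* and *Hes5* in astrocytes stand at 1.04 and 1.02, and the bar of *Hes1* in tanycyte-like cells spans an SE of 0.71. *Hes1* in OPC and *Notch2* in mural cells passed the filter only through the group where each was higher.

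The rest of the pathway was described by its counts. The 58 other pathway genes covered further ligands and receptors, the proteases that cut Notch and the enzymes that add sugars to it. They also covered ligand endocytosis, the nuclear complex with RBPJ, corepressors, negative regulators and other target genes. Of the 58, 37 were tested in astrocytes and 0 were called, by edgeR at an adjusted p under 0.05, where 0.626% of all genes were called. Their log2 fold changes ran from -0.48 to 0.58 with a median of 0.04, against -0.0024 for all genes tested. The highest value was that of the only other target gene tested there. The 7 genes of the nuclear complex lay between -0.34 and 0.17, and the 7 proteases tested lay between -0.36 and 0.18. In OPC 40 of the 58 were tested, 0 were called, against 0.0444% of all genes, and the range was -0.59 to 0.61 around a median of -0.05. Between 30 and 46 of the list were tested in each of the other types tested, with 0 called, against 0.437% of all genes in mural cells and 0 genes in the rest. A count of 0 is therefore near the background and is no result about the pathway, and 4 of the 14 types were not tested.

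Another 3 lists were described in the same way. The 4 *Id* genes, which encode inhibitors of helix-loop-helix factors, were all above 0 in astrocytes, between 0.36 and 0.76 on the log2 scale, and 0 were called. Of 20 early response genes 3 were detected widely enough in astrocytes, between 0.11 and 0.80, and 0 were called. With 0.626% of all genes called in astrocytes, a count of 0 in either list is near the background. The third list was chosen with earlier results of these data known, so its p-values are no independent evidence. Among its 13 genes induced by glucocorticoids, 3 fell in AgRP-Gq;POMC-Gi astrocytes, where 31 of 8462 genes were called lower, or 0.366%: *Fkbp5*, a chaperone partner of steroid receptors (log2 fold change -3.04, edgeR adjusted p = 8.65e-05), *Zbtb16*, a zinc finger repressor (-1.04, adjusted p = 0.00603), and *Tsc22d3*, which encodes GILZ (-0.76, adjusted p = 0.0224). The median of that list was -0.44. In OPC *Zbtb16* (-1.77, edgeR adjusted p = 1.62e-05) and *Fkbp5* (-1.21, adjusted p = 0.00596) also fell, 2 of the 10 genes of the list tested there and 2 of the 4 genes called, all 4 of them lower (0.0444%). In mural cells *Zbtb16* fell (-1.64, edgeR adjusted p = 2.62e-05), 1 of 10 genes of the list tested, where 4 of 5723 genes were called lower, or 0.0699%. These genes moved in the same libraries as *Hes1* and *Hes5*, and whether the changes are connected was not tested.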

How the data were processed

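The authors prepared nuclei of the posterior hindbrain with the 10x Genomics 3′ kit, counted UMIs per gene with Cell Ranger 7.0.0 on GRCm38 and, per the submitters' processing notes, used Seurat 4.3.0. The deposited values are UMI counts, not normalized. Cell types, clusters and the nuclei kept are the authors' annotation, with doublets removed by them. The percent of mitochondrial UMIs per barcode in the deposited table was made by the authors in Seurat and served their filter. The deposited joint matrix was not used.

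UMIs were summed per library and cell type. Levels are CPM of those sums. Depth per library was 48904976 to 53089402 UMIs in kept nuclei. Groups were compared with edgeR 4.0.16 in R 4.3.3 (quasi-likelihood test, TMM factors, genes detected in 5% of nuclei or more, Benjamini-Hochberg adjustment, threshold 0.05), in the 10 types with at least 20 nuclei in every library, and checked on simulated counts. The SE of a log2 fold change is its absolute value divided by the square root of the edgeR F statistic. It restates that statistic and is not the spread between libraries. Alternatives were no TMM factors, DESeq2 1.42.0, no filter, filterByExpr, a replicate block and leaving out each library. Replicate numbers name no shared batch in the labels and, with 2 pairs, were not taken to pair libraries, although choroid plexus content divided the libraries by number. Shares of nuclei carry exact (Clopper-Pearson) 95% intervals, and the limit for a count of 0 is 3 nuclei. Sequences come from RefSeq (GRCm38.p6) and positions from GENCODE vM21. Python 3.11.15, numpy 2.4.6, pandas 2.3.3, scipy 1.17.1 and matplotlib 3.10.9 were used.

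The members and gene lists were chosen with earlier results of these data known. Genes named are the 8 members by a rule on level and difference, the 5 genes most like each (1 of them is not reported here), and called genes of the lists. *Notch2* in the clusters of Oligodendrocytes/OPC was looked at after its values were seen.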

Additional observations from a re-analysis of the deposited data

Results flagged for a closer look

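Members that were fitted in 2 cell types and whose groups did not overlap in opposite directions are given here. The difference between cell types was not tested, and the types come from the same libraries. The log2 fold change of *Hes1* was above 0 in astrocytes, endothelial cells, mural cells and OPC and -0.44 in fibroblasts, so that fibroblasts lay lower by 1.48, 1.32, 0.91 and 2.01 on the log2 scale, in that order. The astrocyte value is the one for which *Hes1* was chosen. The OPC value rests on a filter that the difference itself decided. Neither gap is therefore evidence of a difference between cell types. For *Notch1* astrocytes (0.31) lay 0.86 above ependymal cells (-0.56). For *Jag1* OPC (0.85) lay 1.35 above mural cells (-0.50). Among types where a member was too sparse to be fitted, *Hes1* in Tmem119.Immune cells, *Hes5* in neurons and *Jag1* in neurons and oligodendrocytes were lower without overlap. Such an order was found for 18.5%, 27.7% and 23.3% of genes tested in Tmem119.Immune cells, neurons and oligodendrocytes. *Jag1* had means of only 1.38 CPM in neurons and 1.69 CPM in oligodendrocytes. In astrocytes and OPC *Hes1*, *Hes5* and *Jag1* were higher without overlap, as were 15.2% and 14.5% of genes tested.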

How the results depend on the processing

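Of 278 alternative values for 31 pairs of member and cell type, 256 kept direction and side of the threshold. Another 20 turned direction, and 2 kept it but lay past the threshold only in the alternative. Few pairs were past the threshold in the main fit, so staying on the same side says little for most pairs. A missing adjusted p was counted as the same side. The log2 fold change in astrocytes ran from 0.77 to 1.29 for *Hes1* and from 0.84 to 1.17 for *Hes5*, but the log2 ratio of *Hes5* means went from 0.98 to 0.72 with clusters weighted equally and to 0.64 by pooled share. Leaving out 1 library turned the direction of other pairs. Without AgRP-Gq;POMC-Gi replicate 1 they were *Hey1* in astrocytes (range -0.20 to 0.52), *Notch1* in endothelial cells (-0.42 to 0.022), mural cells (-0.11 to 0.39) and OPC (-0.13 to 0.46), *Hes1* in ependymal (-0.11 to 1.85) and tanycyte-like cells (-0.64 to 0.65), *Notch2* in fibroblasts (-0.24 to 0.88) and *Dll1* in OPC (-0.31 to 0.44). Without AgRP-Gq;POMC-Gi replicate 2 they were *Hey2* in astrocytes (-0.16 to 0.28) and mural cells (-0.33 to 0.20) and *Notch2* in astrocytes (-0.26 to 0.045). Without control replicate 1 they were *Jag1* in endothelial (-0.21 to 0.10) and ependymal cells (-0.98 to 2.04), *Hey2* in mural cells and *Notch1* in tanycyte-like cells (-0.30 to 0.68), and without control replicate 2 *Dll1* in OPC and *Hes1* in tanycyte-like cells. With library size alone, tanycyte-like cells reversed for *Hes1* (-0.18), *Notch1* (-0.062) and *Notch2* (-0.078). Genes called without TMM factors numbered 131 in astrocytes, 14 in OPC and 6 in tanycyte-like cells. DESeq2 called 2 in fibroblasts, 9 in mural cells, 10 in neurons, 2 in OPC and 119 in oligodendrocytes. Without the filter 305 were called in astrocytes, 52 in endothelial cells, 42 in fibroblasts, 59 in mural cells, 1 in neurons, 36 in OPC, 358 in oligodendrocytes and 48 in tanycyte-like cells. With filterByExpr 1 was called in neurons and 26 in oligodendrocytes. The replicate block called 426 in astrocytes, 42 in endothelial, 13 in ependymal and 41 in mural cells, 169 in neurons, 7 in OPC and 226 in oligodendrocytes, and turned no member's direction or call. Same-numbered libraries correlated at 0.34 in oligodendrocytes, 0.24 in astrocytes, 0.18 in neurons, -0.026 to 0.096 in 6 other types and -0.15 in fibroblasts, where a crossed block, chosen after seeing the data, called 0. Leaving out 1 library, counts ran from 69 to 160 in astrocytes, 11 to 59 in endothelial cells, 0 to 21 in ependymal cells, 0 to 2 in fibroblasts, 7 to 26 in mural cells, 3 to 2017 in neurons, 0 to 105 in OPC, 3 to 507 in oligodendrocytes, 5 to 74 in tanycyte-like cells and 0 to 9 in Tmem119.Immune cells. By mean log-normalized value astrocytes passed mural cells for *Hes1* (rank 2) and endothelial cells for *Hey1* (rank 2). F13a1.Immune fell behind choroid plexus for *Notch2* by thinned share (rank 2) and log-normalized value (rank 3), and stood between ranks 1 and 2 with 1 library left out. Astrocytes stood between ranks 1 and 2 for *Hes5*, second without AgRP-Gq;POMC-Gi replicate 2. The ranks of *Notch2* among only types with enough nuclei were not run, because its first type is not one of them. Causes were not tested.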

Other observations

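Barcodes that the authors did not keep, 1003 to 1318 per library, were summed in the same way. Their *Hes1* values were 11.2 and 12.6 CPM in control and 14.9 and 11.5 CPM for AgRP-Gq;POMC-Gi, and *Hes5* values were 3.95 and 3.76 CPM and 2.80 and 8.42 CPM. Groups overlapped in both.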
